A study of Mus musculus with 4 samples.

Results

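Antisense RNAs are transcribed from the DNA strand opposite to another gene, and 139 of them were followed here in mouse embryonic stem cells with and without the microRNA cluster miR-290-295. The 139 were selected on annotation and on level: genes with the biotype antisense in GENCODE vM21 whose counts over all 4 libraries summed to at least 60, leaving out Airn, Kcnq1ot1, Nespas and the small nucleolar and microRNA host genes. They were 139 of 2959 antisense genes and of 55421 genes in the deposited table. Of the antisense genes, 1900 had no count in any library and 1059 had at least 1. Each of the 139 was set beside the protein-coding gene that it overlaps on the other strand, here called its partner. A partner was found for 129 of them, each a different gene, and 10 had none. Where several coding genes overlapped, as for 15 of the 139, the gene with the largest exon overlap was taken.

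The cells were of the E14 line, derived from a blastocyst of 129/Ola background and grown in DMEM with serum and the cytokine LIF on gelatin. The comparison had 2 libraries from cells lacking the miR-290-295 cluster (KO) and 2 from wild-type cells (WT). The series' design text calls the libraries biological duplicates. Whether the KO libraries came from separate clones is not stated, and p-values cover no more than the spread between the libraries at hand. Libraries were made with QuantSeq 3' FWD, which gives reads near the poly(A) tail, and held 9925557 to 12726123 counts. The kit keeps strand, but whether strand was used in counting is not given in the sources used here. An antisense RNA's reads therefore cannot be told from those of its partner with certainty.

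Antisense RNAs can share a start region with the gene opposite, run into its 3' end or lie within it. Some, such as Tsix at the X inactivation centre, act on the gene they overlap, while for most no function is known. MicroRNAs of the miR-290-295 cluster are the main microRNAs of mouse embryonic stem cells and lower the level of transcripts that pair with their seed, bases 2 to 8.

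The seeds are shown because any transcript, coding or not, can carry their matches. In RefSeq (GRCm38.p6, chromosome 7, plus strand) the mature microRNAs of the 3' arm that were used here read as follows, with the seed in capitals. Other microRNAs of the cluster were not used. The entries for miR-291a-3p, miR-294-3p and miR-295-3p have 1 seed, AAGUGCU, while miR-290a-3p and miR-291b-3p differ from it in the last base.
mmu-miR-290a-3p: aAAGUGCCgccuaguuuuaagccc
mmu-miR-291a-3p: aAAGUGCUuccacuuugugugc
mmu-miR-291b-3p: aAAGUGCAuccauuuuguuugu
mmu-miR-294-3p: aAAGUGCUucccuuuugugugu
mmu-miR-295-3p: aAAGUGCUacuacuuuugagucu

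A 7-base site was searched on the transcript's own strand in either of 2 forms and in no other. Matches to the whole seeds of miR-290a-3p and miR-291b-3p were not searched. AGCACTT pairs with the whole seed AAGUGCU, and GCACTTA pairs with its first 6 bases, which all 5 microRNAs share, and has an A opposite base 1. A site of either form, here called a seed match, was present in the longest transcript of 34 of the 139 antisense RNAs. The 30 bases around the match are given for 3 RNAs that were higher in KO, with the match in capitals.
AC165951.1: tctataatcccAGCACTTAggaaagtggag
Mettl5os: tcgagtttcttAGCACTTAcggatgtcagt
Ict1os: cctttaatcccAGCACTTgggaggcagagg

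In AC165951.1 and Ict1os the match directly follows ATCCC, a stretch found in the consensus of the B1 family of repeats. Of 44 matches in the 139 RNAs, 10 followed ATCCC, against 7 of 69 in lincRNA genes with at least 60 counts.

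Because the libraries read poly(A) ends, the annotated 3' ends are shown for 3 of the RNAs whose level differed, with the polyadenylation signal in capitals.
A930024E05Rik: gtaaaAATAAAaaatgtgataaagaaaaaa
Notumos: aagttaaataaatgAATAAAtaatttaatt
Ict1os: atgtctgattttcAATAAAattacttaccc

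AATAAA or ATTAAA lay within the last 50 bases of an annotated transcript for 102 of the 139 (73.4%). The share was 71.9% of lincRNA genes with at least 60 counts and 58.9% of antisense genes with 1 to 59 counts.

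More of these antisense RNAs were higher than lower in KO cells. By edgeR's quasi-likelihood test at a Benjamini-Hochberg adjusted p of 0.05 over 14427 genes, 19 of 139 rose (13.7%) and 3 fell (2.16%). Over all genes tested 7.42% were higher and 4.96% lower. Over the 7741 protein-coding genes with 60 to 2119 counts, the range of these RNAs, the shares were 7.4% and 5.14%. Counts were not matched within that range. The median log2 fold change (KO over WT) was 0.24 for the antisense RNAs and -0.01 for all genes tested. LincRNA genes with at least 60 counts had 23 higher and 5 lower of 230 tested, with a median of 0.22. Both KO libraries lay above both WT libraries for 51 antisense RNAs (29.4% of all genes tested did so) and below them for 23 (28.5% of all genes). The other 65 overlapped. Among antisense genes with 1 to 59 counts, 49 of 917 passed the filter on low counts, of which 0 were higher and 1 lower in that edgeR test. With either KO library left out, 10 RNAs were higher. Lower RNAs then numbered 1 (KO library 1 left out) and 0 (KO library 2 left out, by the same edgeR test). The median change was 0.148 with KO library 1 left out and 0.392 with WT library 1 left out.

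Choice on a summed count bears on these numbers. A gene that is low in one group reaches 60 counts through the other, and the WT pair held fewer than 30 counts for 28 of the 139 while the KO pair did so for 5. Of the 19 higher RNAs 7 had fewer than 30 WT counts, and 0 of the 3 lower RNAs had fewer than 30 KO counts. All 139 passed the filter. Counts ran from 60 to 2119 with a median of 132, and they made up 0.0685% of all counts. Just above the limit stood Gm15859 and Tmem51os1 with 60 counts and Gm36266 with 61, and just below it C230037L18Rik and 2410021H03Rik with 59 and Gm9856 with 57. The genes left out by name held 5 (Airn), 156 (Nespas), 6038 (Kcnq1ot1) and 5495 (Snhg9) counts.

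**Figure D1:**
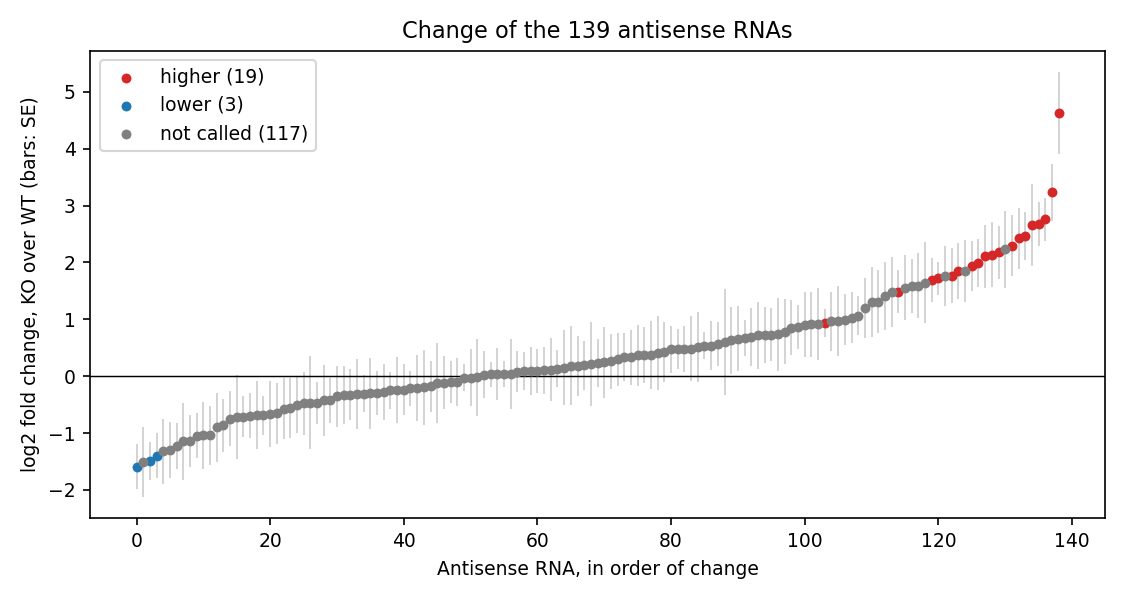
Each point is 1 of the 139 antisense RNAs, in order of its log2 fold change (KO over WT, vertical axis) with its standard error as a bar. The 19 RNAs called higher run from 0.94 to 4.63, the 3 called lower from -1.59 to -1.40, and 117 were not called.

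Lists of cell type markers were read in the same table. Of 8 embryonic stem cell markers 0 were higher and 1 lower, with summed levels of 3576 and 3613 CPM in KO and 3425 and 3562 in WT. Of 8 primitive endoderm markers 7 were lower, with sums of 24.3 and 21.0 CPM in KO and 165 and 179 in WT. Fibroblast markers were low (3 of 6 tested, all 3 lower, sums 15.5 and 27.1 against 42.2 and 63.2 CPM), with Col3a1 and Postn at 0. Trophectoderm markers summed to 395 and 246 CPM in KO and 102 and 111 in WT. Of the 4 tested 1 was higher and 0 lower, and their median log2 fold change was -0.07. Fewer cells of a type and less RNA per cell cannot be told apart in such bulk samples, and the part of these shifts in the antisense results was not tested. Protein-coding genes of chromosome 1 had a median change of 0.29, and without the 13 antisense RNAs of that chromosome 17 of 126 were higher, 3 lower, and the median was 0.19.

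Of the 19 higher RNAs 4 had a partner that was also higher, namely Notumos, Gm37912, 1700042O10Rik and Parvaos. Among all 114 partners tested, 11.4% were higher. Notumos (ENSMUSG00000053613, chromosome 11, 120659157 to 120661815, plus strand) is a single-exon RNA that begins within Notum and reads out across its start. Notum encodes a secreted carboxylesterase that inactivates Wnt proteins. Notumos had 53 and 38 counts in KO libraries 1 and 2 and 8 and 7 in WT libraries 1 and 2, so the KO libraries lay well above WT. Its mean level with SD over 2 libraries was 3.71 ± 0.656 CPM with the cluster deleted and 0.682 ± 0.0203 in WT, a log2 fold change of 2.43 (SE 0.53, edgeR adjusted p = 0.0196). Notum had 1675 and 1305 counts in KO and 224 and 83 in WT, and rose by 3.16 (SE 0.33, edgeR adjusted p = 0.000733). Without KO library 1 Notumos no longer passed (edgeR adjusted p = 0.127).

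At the second of these loci the pair shares a start region. Gm37912 (chromosome 1, 186964528 to 186967603, minus strand) starts 187 bases from the start of D1Pas1, a DEAD-box RNA helicase gene of the male germ line whose reads may be shared with its close relative Ddx3x. Gm37912 had 85 and 99 counts in KO and 16 and 14 in WT, with no overlap between the groups. Its log2 fold change was 2.46 (SE 0.42, edgeR adjusted p = 0.00721), and D1Pas1 changed by 1.89 (SE 0.41, edgeR adjusted p = 0.0185) from 73 and 25 WT counts to 178 and 213. D1Pas1 changed by 2.68 without WT library 1 and 1.40 without WT library 2.

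The other two lie inside their partners with no shared exon base. The RNA 1700042O10Rik (chromosome 11, 11868123 to 11885321, plus strand) lies within Ddc, which encodes aromatic L-amino acid decarboxylase, an enzyme of dopamine and serotonin synthesis. It had 121 and 167 counts in KO and 25 and 16 in WT, a log2 fold change of 2.68 (SE 0.39, edgeR adjusted p = 0.00345). Ddc had 1042 and 861 counts in KO and 301 and 175 in WT, a change of 1.87 (SE 0.22, edgeR adjusted p = 0.00126). Parvaos (chromosome 7, 112526972 to 112535683, minus strand) lies within Parva, which encodes the focal adhesion protein alpha-parvin. It had 32 and 31 counts in KO but 8 and 1 in WT, and its fold change of 2.66 on the log2 scale (SE 0.72, edgeR adjusted p = 0.0424) moved to 4.55 without WT library 1 and 1.93 without WT library 2. Parvaos did not pass without KO library 1 (edgeR adjusted p = 0.127), KO library 2 (0.136) or WT library 2 (0.103). Parva itself had 183 and 228 counts in KO and 60 and 54 in WT and rose by 1.70 (SE 0.30, edgeR adjusted p = 0.00829).

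**Figure D2:**
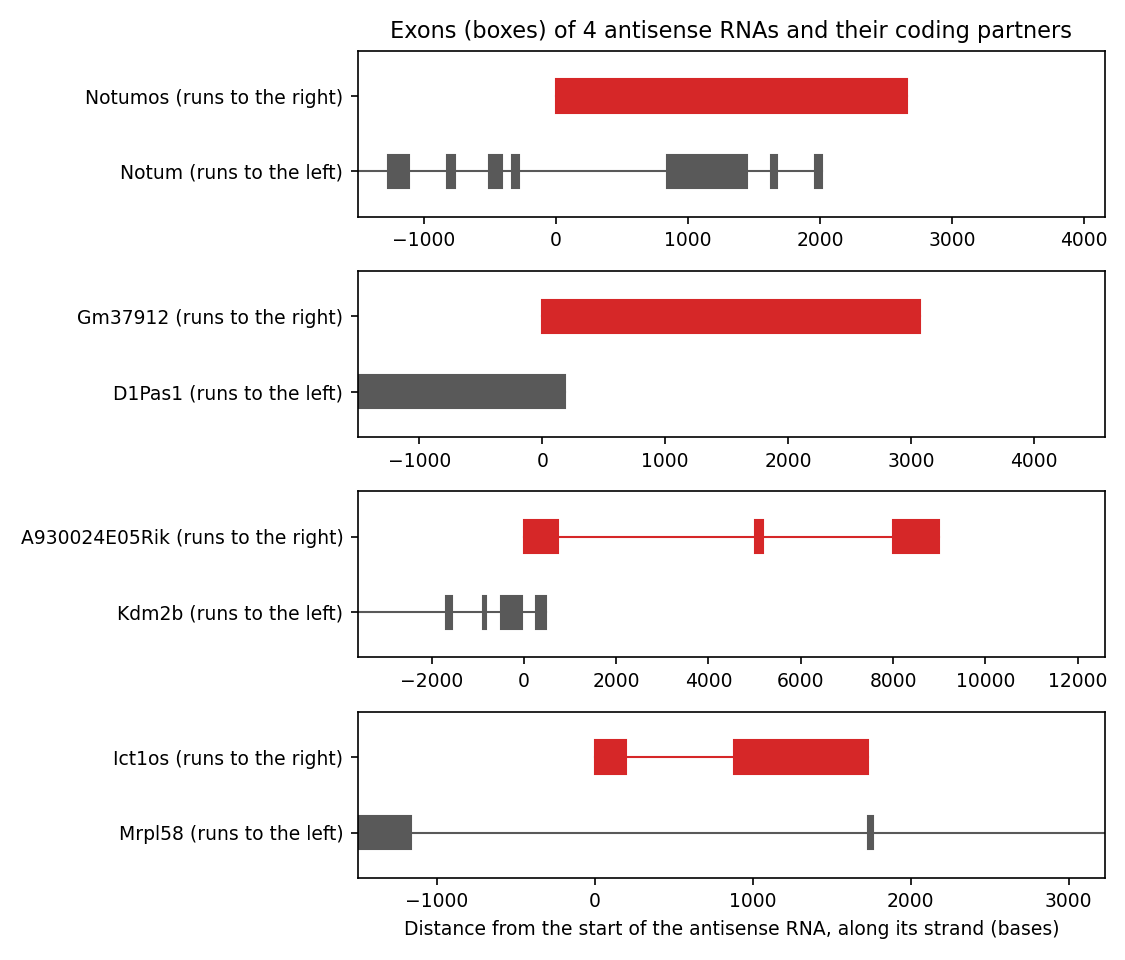
Exon maps of 4 pairs, with the antisense RNA in red above its partner in grey and the horizontal axis giving distance in bases from the start of the antisense RNA. Notumos crosses exons of Notum, Gm37912 and A930024E05Rik overlap the first exons of D1Pas1 and Kdm2b, and Ict1os shares 2 exon bases with Mrpl58. Partners that extend past the window are cut at its edge.

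For 9 higher RNAs the partner was tested and not called, and these included the largest change of all. Ict1os (chromosome 11, 115406586 to 115408314, minus strand) lies within Mrpl58, formerly Ict1, which encodes a peptidyl-tRNA hydrolase of the mitochondrial ribosome. It had 57 and 32 counts in KO and 2 and 1 in WT, at the limit of detection in WT, where 3 counts correspond to at most 0.298 CPM. The ratio of its summed counts was 26.8 (95% counting interval 8.87 to 132), and its fitted change of 4.63 (SE 0.72, edgeR adjusted p = 0.00477) depends on the prior count. Mrpl58 had 858 and 844 counts in KO and 569 and 454 in WT, a change of 0.59 (SE 0.17) that missed the threshold (edgeR adjusted p = 0.0506).

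The RNA 9230117E06Rik (chromosome 16, 22511480 to 22517681, plus strand) lies in Dgkg, a diacylglycerol kinase gene. It had 93 and 68 counts in KO and 6 and 9 in WT, a log2 fold change of 3.23 (SE 0.50, edgeR adjusted p = 0.00466), while Dgkg itself had 15 and 12 against 12 and 6 counts. In that locus most counts in KO were assigned to the antisense RNA. The RNA 2310043M15Rik (chromosome 16, 93792136 to 93794901) lies in Dop1b and varied widely between KO libraries, with 175 and 378 counts against 82 and 32 in WT. Its change of 2.18 (SE 0.46, edgeR adjusted p = 0.0175) became 1.45 without KO library 2 and no longer passed (edgeR adjusted p = 0.0805). Dop1b had 154 and 195 counts in KO and 173 and 134 in WT, which overlap.

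A pair of divergent RNAs in this class begin beside genes of chromatin and transcription. A930024E05Rik (chromosome 5, 122989354 to 122998345, plus strand) starts 469 bases from the start of Kdm2b, which encodes a histone demethylase that binds unmethylated CpG islands. It had 61 and 71 counts in KO and 17 and 14 in WT, a change of 1.94 (SE 0.44, edgeR adjusted p = 0.0224), while Kdm2b had 487 and 437 against 514 and 338 and a change of -0.02. The adjusted p of A930024E05Rik in edgeR was 0.0504 without KO library 1 and 0.135 without KO library 2. The RNA 0610040F04Rik (chromosome 6, 108577039 to 108660934, minus strand) starts 305 bases from Bhlhe40, which encodes a transcriptional repressor of the circadian clock. It had 113 and 81 counts in KO and 18 and 25 in WT, a change of 1.99 (SE 0.42, edgeR adjusted p = 0.0172, and 0.0806 without KO library 1). Bhlhe40 had 746 and 527 counts in KO and 136 and 326 in WT, with a change of 1.25 that was not called (edgeR adjusted p = 0.0696).

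Panct2, named for pluripotency and divergent from the organic anion transporter gene Slco4c1 on chromosome 1 (96871126 to 96907796), was among the most counted of the RNAs. It had 306 and 252 counts in KO and 49 and 102 in WT, a change of 1.69 (SE 0.38, edgeR adjusted p = 0.0216). The change was 2.48 without WT library 2, 1.16 without WT library 1 and 1.40 with chromosome medians removed. Adap2os, within the GTPase-activating protein gene Adap2, had 40 and 48 counts in KO and 8 and 8 in WT, a change of 2.29 (SE 0.53, edgeR adjusted p = 0.0242). Leaving out KO library 1, KO library 2 or WT library 1 gave it an edgeR adjusted p of 0.0608, 0.148 or 0.0514. Gm26800 in Tmem30c, named after its values were seen, had 114 and 181 counts in KO and 60 and 17 in WT, a change of 1.84. It did not pass when KO library 2 was left out (edgeR adjusted p = 0.173), and its change was 2.84 with WT library 1 left out.

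For 5 higher RNAs there was no partner that could be tested, 2 with none annotated and 3 whose partner was nearly or wholly without counts. Gm16233 (chromosome 3, 144947561 to 144954878) overlaps the chloride channel accessory gene Clca4a, which had 0 counts in every library. Gm16233 had 120 and 149 counts in KO and 21 and 15 in WT, a change of 2.76 (SE 0.38, edgeR adjusted p = 0.00272), which was the smallest p of the 139. Gm13580 (chromosome 2, 60411525 to 60412579) overlaps no coding gene and had 369 and 312 counts in KO and 75 and 107 in WT, a change of 1.73 (SE 0.29, edgeR adjusted p = 0.00670). The others, named after their values were seen, were Mettl5os (40 and 28 against 8 and 6 counts), 4930526L06Rik across Ms4a12 (63 and 53 against 12 and 18) and Gm27234 in the orexin receptor gene Hcrtr2 (150 and 237 against 86 and 42). Leaving out any 1 library ended the call of Mettl5os (edgeR adjusted p 0.0792 to 0.273). Leaving out either KO library or WT library 1 ended that of 4930526L06Rik (edgeR adjusted p 0.107 to 0.176), and leaving out KO library 2 that of Gm27234 (0.228).

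In 1 locus the RNA and its partner were called in opposite directions. AC165951.1 (chromosome 17, 30920338 to 30963220, minus strand) runs toward Glp1r, the receptor of the incretin hormone GLP-1, with no shared exon base. It had 223 and 226 counts in KO and 117 and 95 in WT, a change of 0.94 (SE 0.25, edgeR adjusted p = 0.0399). Glp1r had 10 and 10 counts in KO and 74 and 28 in WT, a change of -2.44 (SE 0.57, edgeR adjusted p = 0.0242). Both calls depended on single libraries. Leaving out KO library 1 gave an edgeR adjusted p of 0.144 for AC165951.1, and leaving out KO library 2 gave 0.231. For Glp1r the edgeR adjusted p was 0.0774 and 0.0674 in those fits and 0.124 when WT library 1 was left out.

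The 3 RNAs that fell were Gm11837, A330084C13Rik and Gm15718, and none of their partners was called. Gm11837 (chromosome 4, 14929908 to 14953030) is convergent with the neuronal calcium-binding protein gene Necab1 and has all of its last 300 exon bases within Necab1 exons. It had 69 and 40 counts in KO and 209 and 93 in WT, and fell by 1.59 (SE 0.40, edgeR adjusted p = 0.0320), while Necab1 had 20 and 14 against 30 and 7. A330084C13Rik (chromosome 18, 64884475 to 64888491) starts 786 bases from the ubiquitin ligase gene Nedd4l and had 62 and 48 counts in KO and 124 and 151 in WT, a change of -1.49 (SE 0.33, edgeR adjusted p = 0.0206). Nedd4l had 430 and 523 against 495 and 474 counts, which overlap. Gm15718 (chromosome 7, 132979582 to 132983552) lies within Zranb1, a deubiquitinase gene, and within the annotated span of Fgfr2 on its own strand. It had 55 and 58 counts in KO and 96 and 167 in WT, a change of -1.40 (SE 0.39, edgeR adjusted p = 0.0478). With KO library 2 left out none of the 3 passed (edgeR adjusted p = 0.133 for Gm11837, 0.0966 for A330084C13Rik and 0.0966 for Gm15718). With KO library 1 left out, A330084C13Rik (edgeR adjusted p = 0.0501) and Gm15718 (0.151) did not pass. Leaving out WT library 1 ended the call of Gm11837 (edgeR adjusted p = 0.105, change -1.06), and leaving out WT library 2 that of Gm15718 (0.207, change -0.79).

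**Figure D3:**
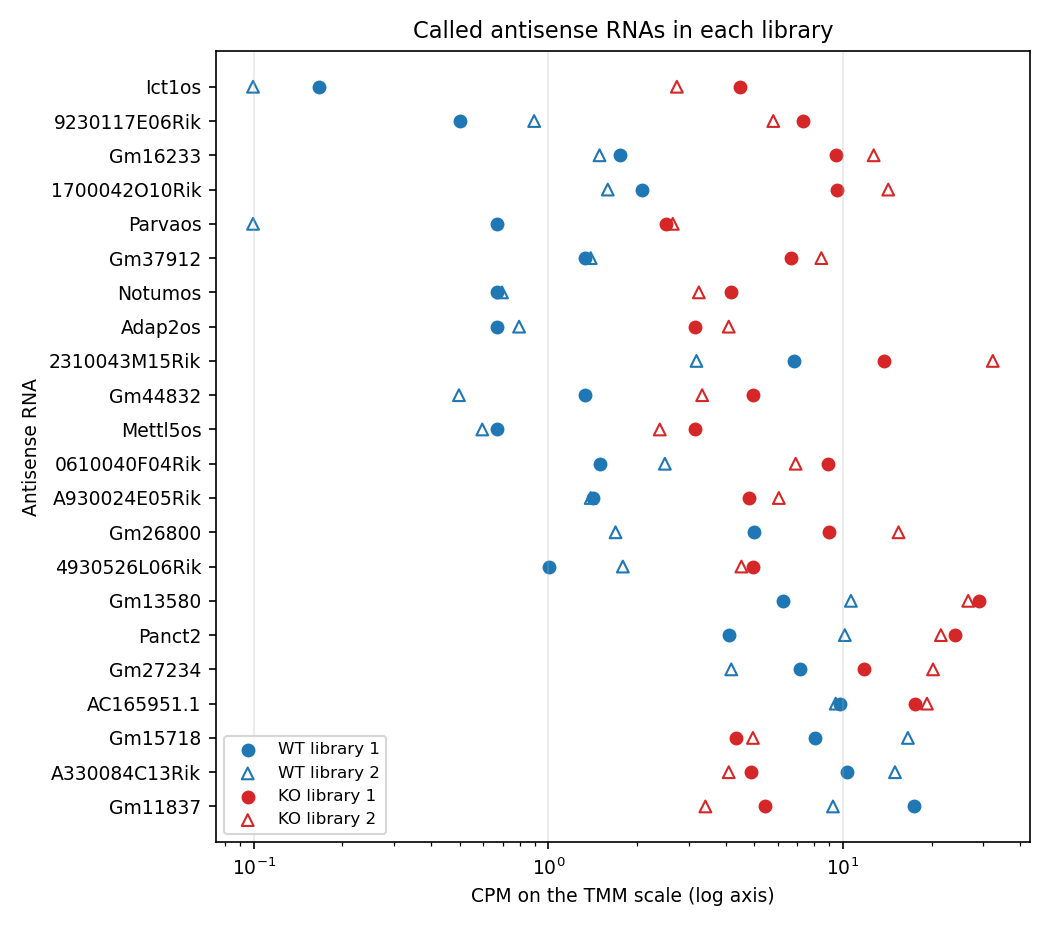
CPM on the TMM scale (horizontal log axis) of the 22 called antisense RNAs in each of the 4 libraries, KO in red and WT in blue. For every one of the 22 the KO and WT points do not overlap, but the calls came from these same libraries. Both KO libraries lay above both WT libraries for 29.4% of all genes tested and below them for 28.5%.

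Among the partners, 114 of 129 could be tested, with a median change of 0.17. Of the 114, 13 were higher (11.4%) and 5 lower (4.39%). The shares were 7.97% and 5.12% of protein-coding genes tested and 7.42% and 4.96% of all genes tested, so the lower share is near the background. Without the chromosome 1 genes 11 of 104 partners were higher and 5 lower, with a median of 0.13. Beside the 4 already described, the higher partners were Kctd16, Bace1, Gsta3, Wdfy3, Nphs1, Cryzl1, Adprh, Tlk2 and Cxxc5, with changes from 0.63 (Cxxc5) to 3.31 (Kctd16). With KO library 1 left out Adprh, Cxxc5, Nphs1 and Tlk2 did not pass (edgeR adjusted p = 0.0509, 0.296, 0.111 and 0.171), nor did Cxxc5 (0.115) and Tlk2 (0.116) with KO library 2 left out. Kctd16, an auxiliary subunit of GABA-B receptors, had 77 and 57 counts in KO and 7 and 5 in WT. Bace1, the beta-secretase gene, had 718 and 464 counts in KO and 145 and 106 in WT, a change of 2.08 (SE 0.24, edgeR adjusted p = 0.00126). Besides Glp1r the lower partners were Bmp4, Ryr1, Mcam and Ecsit. With KO library 1 left out Ryr1, Mcam and Ecsit did not pass (edgeR adjusted p = 0.167, 0.15 and 0.129), nor did Ryr1 (0.136) and Ecsit (0.122) with KO library 2 left out or Ryr1 (0.0762) with WT library 2 left out. Bmp4, a signalling ligand of early development, was the most counted of them, with 2669 and 2534 counts in KO and 7255 and 6330 in WT, a change of -1.53 (SE 0.14, edgeR adjusted p = 0.000385). Its antisense RNA Gm15222 had 33 and 30 counts in KO and 25 and 56 in WT, which overlap. Lower partners numbered 1 with KO library 1 left out, 3 with KO library 2 left out and 8 with WT library 2 left out, and higher partners numbered 20 in that last fit. The partners' median change was 0.0718 with KO library 2 left out and 0.0995 with WT library 1 left out.

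Of the 13 antisense RNAs whose partner was higher, 4 were themselves higher and 0 lower in that edgeR test, with a median change of 1.59. The other 9 were not called, and 3 of the 13 had a negative change (AC098707.1 -1.50, Gm16536 -0.42 and Gm10785 -0.21). Gm28836, convergent with the glutathione transferase gene Gsta3, had 110 and 59 counts against 35 and 16, and Nphs1os, in the nephrin gene Nphs1, had 40 and 21 against 10 and 8. Of the 5 RNAs whose partner was lower, 1 was higher (AC165951.1), and the median was -0.56. For comparison, 13.7% of all 139 RNAs were higher and 2.16% lower, and 7.42% and 4.96% of all genes tested. Whether these groups of 13 and 5 differ from those shares was not tested.

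Whether an RNA and its partner changed unequally was tested directly, as the change of their ratio, by limma on log2 CPM with adjustment over 1269 opposite-strand pairs of the table. Unequal change was called in 11 of 114 antisense pairs (9.65%), in 107 of 1098 pairs of 2 coding genes (9.74%), and in 9.38% of all pairs. The share for antisense pairs is thus near the background. In 9 of the 11 the antisense RNA rose relative to its partner, and 6 of the 11 contain an RNA that was called on its own. Leaving out KO library 2 left 4 of the 11 called, and leaving out any other library left 0, while all 11 kept their direction in each of these fits.

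The 2 pairs with a relative fall of the antisense RNA had a partner that rose. AC098707.1 had 8 and 9 counts in KO and 32 and 13 in WT while Kctd16 rose, a difference of changes of -4.21 (SE 0.66, limma adjusted p = 0.00727). Gm16536, within Bace1, had 82 and 98 counts in KO and 77 and 136 in WT, which overlap, and the difference was -2.39 (SE 0.51, limma adjusted p = 0.0205). The relative rises that came with a called RNA were those of Ict1os over Mrpl58 (difference 3.01, SE 0.49, limma adjusted p = 0.00779), AC165951.1 over Glp1r (3.05), Gm26800 over Tmem30c (3.16), 2310043M15Rik over Dop1b (2.10), A930024E05Rik over Kdm2b (1.83) and 9230117E06Rik over Dgkg (2.56, SE 0.69, limma adjusted p = 0.0483). The last of these did not pass with a prior count of 0.5 (limma adjusted p = 0.0822), in the edgeR interaction (0.0677) or with no filter (0.0527). The difference of Ict1os over Mrpl58 depended on the setting, with 3.77 at a prior count of 0.5, 2.22 at 5 and 4.02 in the edgeR interaction.

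In the other relative rises neither gene was called alone. Zbtb11os1, divergent from the zinc finger gene Zbtb11, had 41 and 31 counts against 12 and 6, while Zbtb11 had 708 and 620 against 685 and 589. The difference was 1.80 (SE 0.45, limma adjusted p = 0.0373). Dgkeos had 21 and 38 counts against 21 and 7 beside Dgke, with 199 and 407 against 742 and 375, a difference of 1.99 (SE 0.46, limma adjusted p = 0.0285). The KO and WT counts of Dgkeos overlap. Gm20324 in Tcf20 had 29 and 21 against 12 and 5 counts, with a difference of 1.80 (SE 0.42, limma adjusted p = 0.0285).

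**Figure D4:**
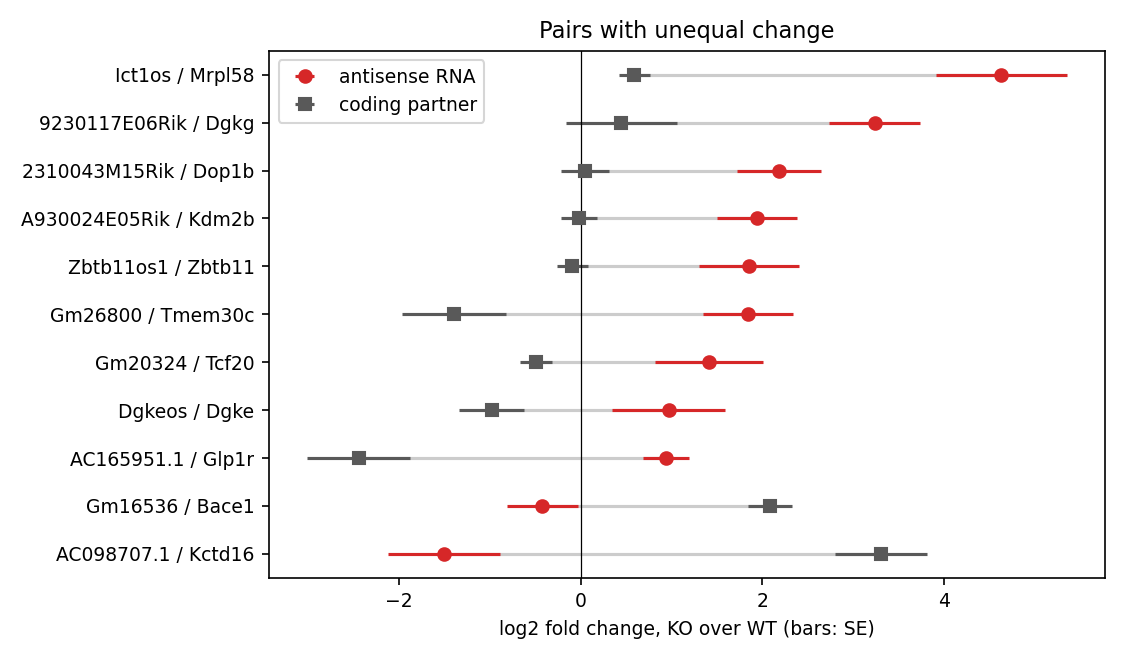
Log2 fold changes (KO over WT, horizontal axis, bars are standard errors) of the antisense RNA in red and its coding partner in grey for the 11 pairs with unequal change. The antisense RNA lies to the right of its partner in 9 pairs and to the left for Gm16536 and AC098707.1.

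The 129 pairs fell into 4 arrangements. Divergent pairs, which overlap at their starts, numbered 54, of which 5 antisense RNAs were higher and 1 lower (median change 0.03). Antisense RNAs inside their partner numbered 42, with 9 higher and 1 lower and a median of 0.70. Convergent pairs numbered 29 (2 higher, 1 lower, median 0.19), and in 4 the partner lay inside the antisense RNA (1 higher). Of all 139 RNAs 13.7% were higher and 2.16% lower, against 7.42% and 4.96% of all genes tested. The difference between arrangements was not tested. Of the 103 RNAs that share exon bases with their partner 10 were higher and 2 lower (median 0.22), and of the 26 that share none 7 were higher and 1 lower (median 0.62).

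Across the 114 tested pairs the changes of RNA and partner had a Pearson r of 0.262 and a Spearman rho of 0.284, and 66 had the same sign. These points share the same 4 libraries and are genes, not replicates, so the values are a description. The same measure was 0.164 and 0.130 over the 1098 pairs of coding genes. Between KO library 1 and KO library 2 it was 0.119 (r) over the antisense pairs, and 0.151 between the WT libraries. Where no exon base is shared, r was 0.428 and rho 0.469 over 22 pairs. Over the 92 pairs with shared exon bases r was 0.181 and rho 0.201. For these 92 pairs r was 0.126 between the KO libraries and 0.181 between the WT libraries. The latter is as large as r for KO over WT. For the 22 pairs with no shared exon base these values were 0.0673 and 0.0368. The last 300 exon bases, where 3' reads fall, lay wholly within partner exons for 8 RNAs, partly for 20 and outside for 101. Of the 22 called RNAs 3 had any such overlap, which were Gm11837, Gm26800 and Ict1os.

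**Figure D5:**
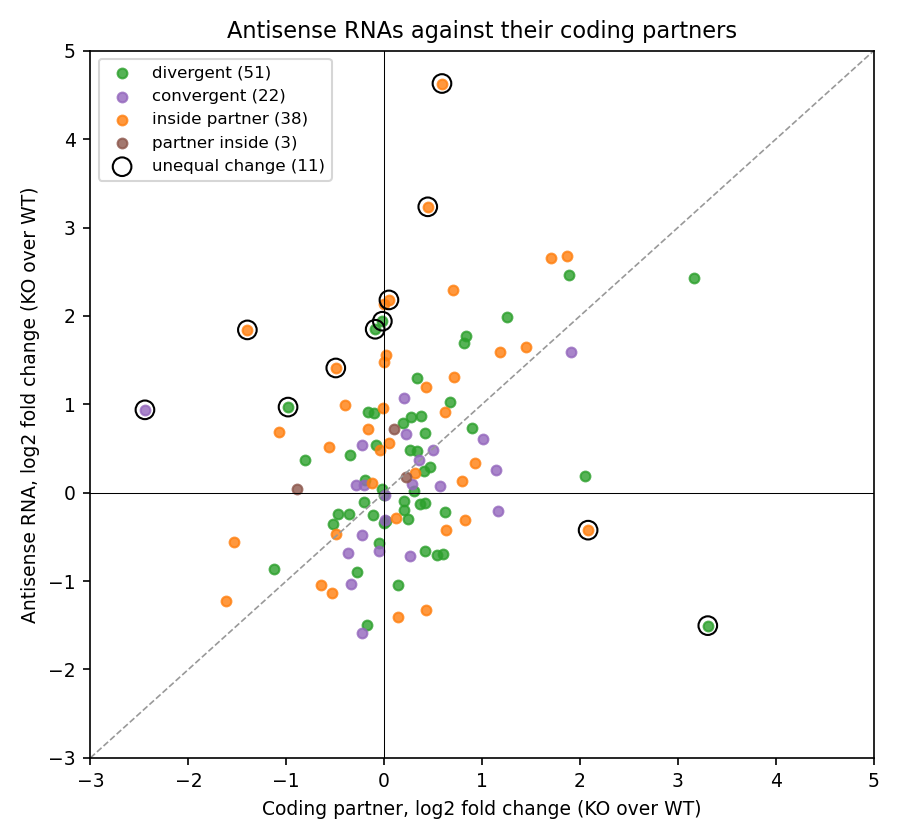
Log2 fold change (KO over WT) of the antisense RNA (vertical axis) against that of its coding partner (horizontal axis) for 114 pairs, coloured by arrangement, with the dashed line marking equal change. Circles mark the 11 pairs with unequal change, and Notumos with Notum lies at the upper right with changes of 2.43 and 3.16.

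RNAs with a symbol ending in os or os1 numbered 19. The symbol does not always name the partner, since Mettl5, Etaa1, Map2k3 and Brip1 were not among the partners. Mettl5os, Adap2os, Notumos, Parvaos and Ict1os were higher and 14 were not called. Each of these higher RNAs had fewer than 30 counts in the WT pair, so most of its counts came from KO. Of all 139 RNAs 13.7% were higher, and of all genes tested 7.42%. Rab26os had 246 and 131 counts in KO and 199 and 113 in WT, Sp3os had 122 and 98 against 160 and 80, and Rab10os had 97 and 147 against 168 and 109. In each of these the groups overlap. Vax2os had 30 and 17 counts against 20 and 17. Map2k3os, Dnah2os, Tmem51os1, Etaa1os, Srrm4os and Mypopos were likewise not called, with changes between -0.69 and 0.96. Brip1os had 201 and 208 counts in KO and 196 and 179 in WT, with a change of -0.03 (SE 0.23, edgeR adjusted p = 0.961), and its largest exon overlap is with Med13.

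Tsix, the antisense RNA of Xist, was the most counted of the 139. It had 541 and 576 counts in KO and 652 and 350 in WT, so the KO libraries lay between the WT libraries, and its change was 0.04 (SE 0.23, edgeR adjusted p = 0.939). Xist, the RNA that silences the X chromosome, had 24 and 9 counts in KO and 8 and 5 in WT and did not pass the filter on low counts. The gene listed as Trmt61b, which has the antisense biotype in this annotation, had 303 and 232 counts against 260 and 210 (change 0.04). The RNA 4930566F21Rik had 365 and 252 against 199 and 182, a change of 0.53 that did not pass (edgeR adjusted p = 0.174).

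Sequence features were set beside the changes. The shares over all 139 RNAs were 13.7% higher and 2.16% lower, and over all genes tested 7.42% and 4.96%. Whether RNAs with and without a feature differ in these shares was not tested. Of the 34 RNAs with a seed match 6 were higher and 0 lower, with a median change of -0.02. Of the 105 without one, 13 were higher and 3 lower, with a median of 0.33. The 8-base match AGCACTTA was present in 4 RNAs, of which AC165951.1 and Mettl5os were higher. Seed matches were present in 24.5% of the antisense RNAs and in 19.0% of the lincRNA genes. Of the lincRNA genes with a match 5 were higher and 1 lower of 44, with a median change of 0.23, and of those without 18 and 4 of 186, with a median of 0.21. Of the 102 RNAs with a polyadenylation signal near an annotated end 14 were higher and 0 lower, against 5 and 3 of the 37 without. Among lincRNA genes 19 were higher and 5 lower of 165 with such a signal, and 4 and 0 of 65 without. RefSeq promoter windows (GRCm38.p6, 250 bases before to 50 after the start) were found for 67 of the 139. GGGCGG, the core of the binding site of Sp factors, on either strand, was present in 61.2% of them and in 35.9% of all 27025 windows. The shares were 40.3% and 37.9% for CCAAT, 5.97% and 14.2% for TATAAA and 14.9% and 16.1% for CAGCTG, with a median of 20 CG dinucleotides against 7. The 67 were chosen on level and the 27025 were not. Whether other genes of like level differ from all windows in the same way was not tested.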

How the data were processed

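Poly(A) RNA of 4 libraries was extracted with Trizol, per the labels' protocols. What the authors deposited is a single table of raw counts by Ensembl identifier. The submitters' processing notes list Trim Galore and GRCm38. Aligner, counter, strand option and annotation release: not given in the sources used here.

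Genes were named and paired with GENCODE vM21, which may not be the release used for counting. The test was edgeR 4.0.16 in R 4.3.3 (TMM, filterByExpr, two-sided quasi-likelihood test), with Benjamini-Hochberg adjustment over 14427 genes at 0.05. SE was taken from the log2 fold change and the F statistic, and CPM is on the TMM scale. Pairs were compared by limma 3.58.1 on log2 CPM (prior count 2) of RNA minus partner. The interval of a count ratio covers counting error alone, as reads carry no molecular identifiers. Sequences were searched in GENCODE transcripts and RefSeq windows with Python 3.11.15. The edgeR and limma steps were also run on simulated counts that gave all genes a common dispersion. Genes made to change there were not drawn from the lowest levels. That run therefore gives no error rate for low-count RNAs such as many of these.

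Named were up to 12 called RNAs in each direction with the smallest p (all 3 that were lower), the 6 with the highest CPM, those with names ending in os or os1, Tsix, the 10 most unequal pairs, and the genes at the limit. The eleventh unequal pair (9230117E06Rik), the called partners, Gm28836 and Gm15222 were named after their values were seen. The members and lists were chosen with earlier results of these data known. Leaving out chromosome 1 was added after seeing the data. Other alternatives were DESeq2 1.42.0 (its size factors and its test), other filters, prior counts and overlap rules, chromosome medians removed, an edgeR interaction, the replicate block and leaving out each library. The values of 1 pair are not reported here.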

Additional observations from a re-analysis of the deposited data

How the results depend on the processing

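With the replicate number as a block, 7 RNAs were higher and 1 lower, 11 partners were higher and 2 lower, and 16 pairs were unequal. The numbers carry no pairing in the labels, and the deviations of KO library 1 and WT library 1 correlated at -0.0703. With 1 library left out, which leaves 1 lone library assumed to vary like the others, higher RNAs numbered 10 to 21, lower RNAs 0 to 3, higher partners 10 to 20, lower partners 1 to 8 and unequal pairs 0 to 4. The median change ran from 0.148 to 0.392 for the RNAs and from 0.0718 to 0.169 for partners. Counting only partners with shared exon bases gave 2 lower partners. DESeq2's test gave 17 higher and 3 lower RNAs and dropped 4930526L06Rik, Mettl5os and Parvaos. With no filter there were 27 and 3. With chromosome medians removed the change was 0.0196 for Brip1os and -0.0823 for Tsix. With 1 library left out, genes that were not called turned sign, with values of -0.105 to 0.0615 for Brip1os, -2.23 to 0.805 for Dnah2os, -0.789 to 0.262 for Etaa1os, -1.41 to 0.12 for Map2k3os, -0.699 to 0.0168 for Rab10os, -0.313 to 0.478 for Rab26os, -0.571 to 0.171 for Sp3os, -0.0219 to 1.88 for Srrm4os, -0.835 to 0.865 for Tmem51os1, -0.0997 to 0.169 for Trmt61b, -0.248 to 0.392 for Tsix and -0.205 to 0.494 for Vax2os. Over all alternatives to single genes and pairs, 556 values kept their direction and stayed called or stayed not called. The 556 thus include genes called in neither fit, such as Mypopos. Another 112 lost the call, 2 gained it and 18 turned, and the causes were not tested. Low counts limit the RNAs, since 3 counts correspond to 0.236 to 0.298 CPM.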
